A study of Rattus norvegicus with 10 samples.

Results

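The microRNAs described here are the 8 of the rat panel that map to the miR-127/miR-434 stretch of the imprinted Dlk1-Dio3 domain. They were chosen by name alone, as every microRNA probe called miR-127, miR-136, miR-337, miR-431, miR-433, miR-434, miR-540 or miR-665, whatever the arm. This rule took 8 of the 420 microRNA probes, and all 8 were among the 253 that exceeded background in 2 or more samples, where background is the mean of the sample's negative controls plus 2 SD. The dorsal vagal complex of 10 adult male Sprague-Dawley rats was sampled with a tissue punch for these counts. This hindbrain region holds motor neurons of the vagus nerve, some of which reach the heart. Age-matched control animals (AMC, n = 3) were compared with animals given remote ischemic preconditioning (RIPC, n = 2), animals with the left anterior descending coronary artery ligated (LAD, n = 3), and animals in which preconditioning came 2 h before the ligation (RIPC+LAD, n = 2). Ligated animals were sampled 24 h after the ligation. No sham-operated animals were among the samples, so the effect of surgery and anaesthesia cannot be told apart from that of the ligation. A punch holds neurons, glia and vessels, so fewer cells of a type and less microRNA per cell cannot be told apart in these values.

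The Dlk1-Dio3 domain is imprinted, meaning that each gene is expressed from the copy of 1 parent. In mouse its microRNAs and long noncoding RNAs, Meg3 among them, are made from the maternal chromosome, whereas Rtl1, a gene derived from a retrotransposon, is expressed from the paternal one. In mouse a maternal transcript runs antisense to Rtl1 and is cut into microRNAs that match the Rtl1 mRNA perfectly and direct its cleavage. Downstream in the same domain lies the larger miR-379 to miR-410 group, which includes miR-134, a regulator of dendritic spines in rat neurons. Brain and placenta are the tissues in which these microRNAs are best known.

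RefSeq (assembly GRCr8) places the 8 hairpins on chromosome 6 over 10.3 kb, in the order miR-337, miR-540, miR-665, miR-431, miR-433, miR-127, miR-434 and miR-136. The last 5 fall inside the bounds of Rtl1. The first 3 lie between Meg3 and Rtl1, so the name Rtl1-antisense fits the position of 5 of the 8. The RefSeq table held 12 mature sequences for these hairpins. They had 12 distinct seeds, the bases 2 to 8 that pair with targets, and none of these seeds occurred in another of the 724 rat mature microRNAs in the table. Arms held in the table are printed, with the seed in capitals, for miR-127, miR-434 and miR-136, the members of smallest p in RIPC+LAD vs LAD, and for miR-433, which is set against miR-434 as a ratio. For miR-127 and miR-136 the table held the 3p arm alone, so their other arm was not part of the seed comparison. The panel names of miR-127, miR-434, miR-136 and miR-433 carry no arm, so which arm a probe reads is not given by its name.
miR-127-3p: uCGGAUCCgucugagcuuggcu
miR-434-5p: aGCUCGACucaugguuugaacca
miR-434-3p: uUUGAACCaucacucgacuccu
miR-433-5p: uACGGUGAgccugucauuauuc
miR-433-3p: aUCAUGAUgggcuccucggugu
miR-136-3p: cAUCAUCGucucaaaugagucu
These lie on the plus strand of GRCr8 at chr6:134328510-134328531 (miR-127-3p), chr6:134330413-134330435 (miR-434-5p), chr6:134330451-134330472 (miR-434-3p), chr6:134327369-134327390 (miR-433-5p), chr6:134327421-134327442 (miR-433-3p) and chr6:134331383-134331404 (miR-136-3p). Although miR-434-5p and miR-434-3p have different seeds, they share the run UUUGAACCA of 9 bases.

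Total microRNA counts per sample ranged from 28485 to 102824, with the fewest in LAD 3 and LAD 2. Neuronal markers were present, with 5 of 6 probes of the neuron list detected. Counts of the strongest spike-in control, POS_A, fell into a high set (AMC 1 to 3, RIPC 2 and LAD 1) and a low set (RIPC 1, LAD 2, LAD 3 and both RIPC+LAD animals), which crosses some groups but not AMC or RIPC+LAD. The ligation control, which tracks how well microRNAs were tagged before counting, was 19.2% and 29.6% of POS_A in the RIPC+LAD animals and 4.30% to 16.3% in the other 8. Animal numbers have a common prefix within 3 sets, namely AMC 2 with AMC 3, LAD 2 with LAD 3, and RIPC+LAD 1 with RIPC+LAD 2, and no prefix crosses groups. The labels do not explain it.

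The members spanned a wide range of abundance. By mean log2 CPM (log2 of the counts scaled to the sample's total by TMM factors, the trimmed mean of M values), miR-434 ranked 14 among the 253 detected microRNAs, followed by miR-127 at 38, miR-433 at 42, miR-136 at 64, miR-665 at 100, miR-431 at 116, miR-540 at 209 and miR-337 at 216. Ranks of different probes also depend on how well each probe captures its target. The 6 most abundant members were above background in all 10 samples, while miR-337 and miR-540 were above it in 5 of 10 each. Together the 8 made up 2.50%, 3.06% and 3.11% of microRNA counts in AMC, 3.10% and 3.39% in RIPC, 2.14%, 3.08% and 2.13% in LAD, and 3.13% and 4.38% in RIPC+LAD. RIPC+LAD 2 had the highest share, whereas RIPC+LAD 1 lay among the RIPC animals.

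**Figure D1:**
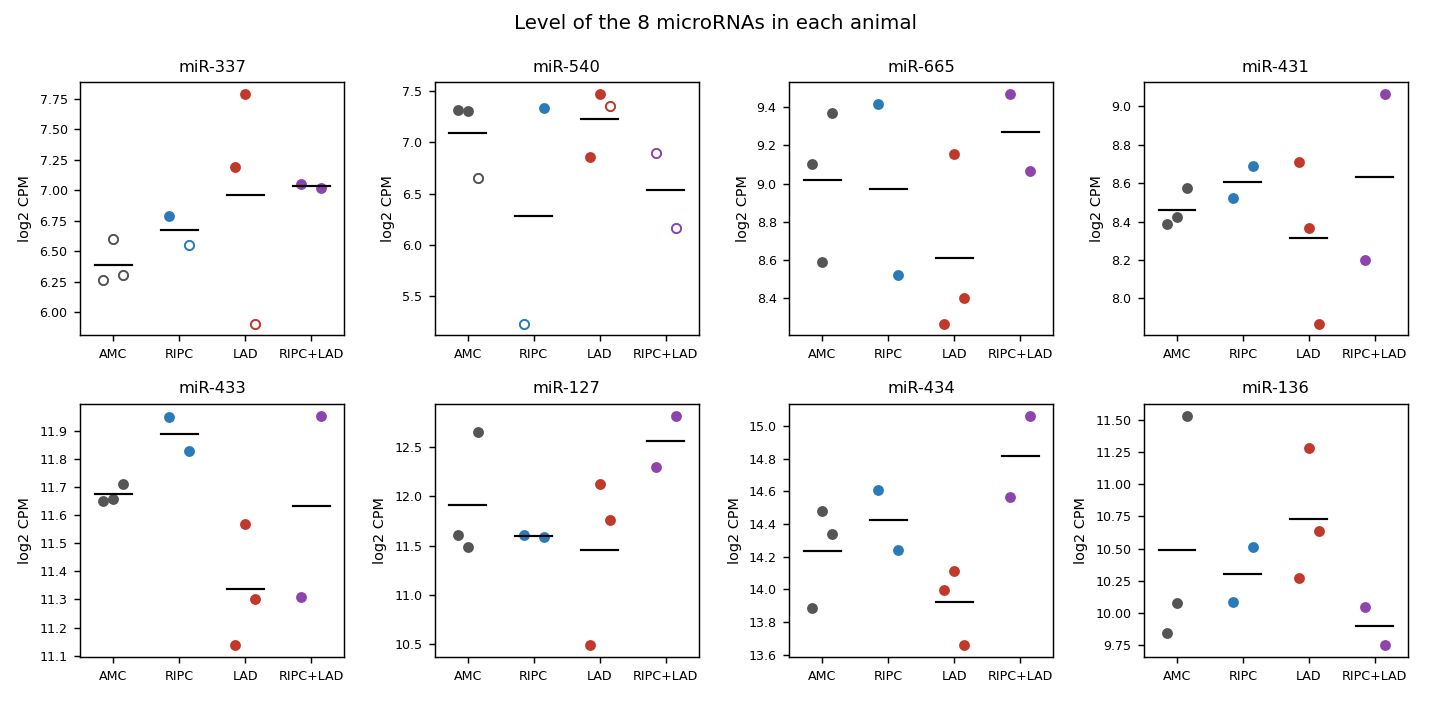
Log2 CPM of each microRNA in each animal, in gene order, with the 4 groups on the horizontal axis, a bar at the group mean and open circles for values not above background. For miR-434 and miR-127 the 2 RIPC+LAD animals lie above all 3 LAD animals, and for miR-136 they lie below them.

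The most abundant member, miR-434, is one of the microRNAs antisense to Rtl1. Its raw counts were 1464, 2222 and 1915 in AMC, 2044 and 1696 in RIPC, 1620, 810 and 371 in LAD, and 1801 and 2951 in RIPC+LAD. Scaled to log2 CPM, these were 13.88, 14.48 and 14.34 in AMC, 14.61 and 14.24 in RIPC, 14.00, 14.11 and 13.66 in LAD, and 14.56 and 15.06 in RIPC+LAD. The LAD animals lay low and the RIPC+LAD animals high, and these groups did not overlap. The group means were 13.92 ± 0.24 in LAD (SD, n = 3), 14.23 ± 0.31 in AMC (n = 3), 14.43 ± 0.26 in RIPC (n = 2) and 14.81 ± 0.35 in RIPC+LAD (n = 2), and each group overlapped the next in this order.

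Antisense to Rtl1 as well, miR-127 is required in mouse for the normal growth of the placenta. Its raw counts were 300, 278 and 595 in AMC, 253 and 267 in RIPC, 140, 203 and 99 in LAD, and 374 and 621 in RIPC+LAD. The log2 CPM values were 11.60, 11.49 and 12.66 in AMC, 11.61 and 11.58 in RIPC, 10.49, 12.12 and 11.76 in LAD, and 12.30 and 12.82 in RIPC+LAD. LAD 1 stood lowest of all 10 samples. AMC 3 lay apart from the other controls and within the range of RIPC+LAD. The means ran from 11.46 ± 0.86 in LAD (n = 3) through 11.59 ± 0.015 in RIPC (n = 2) and 11.92 ± 0.64 in AMC (n = 3) to 12.56 ± 0.37 in RIPC+LAD (n = 2), with overlap at each step.

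The hairpin of miR-136 is the last of the 8 in gene order. Its mean was lowest in RIPC+LAD, the group in which the means of miR-434 and miR-127 were highest. The log2 CPM values were 9.85, 10.08 and 11.53 in AMC, 10.09 and 10.51 in RIPC, 10.27, 11.28 and 10.63 in LAD, and 10.05 and 9.75 in RIPC+LAD. AMC 3 was the highest of all samples, while the RIPC+LAD animals lay below every LAD and RIPC animal. The means were 9.90 ± 0.21 in RIPC+LAD (n = 2), 10.30 ± 0.30 in RIPC (n = 2), 10.49 ± 0.91 in AMC (n = 3) and 10.73 ± 0.51 in LAD (n = 3). RIPC+LAD and RIPC did not overlap, and the later neighbours in this order did.

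The steadiest control values belonged to miR-433, which lies inside Rtl1 next to miR-127. They were 11.65, 11.66 and 11.71 log2 CPM in AMC, 11.95 and 11.83 in RIPC, 11.14, 11.57 and 11.30 in LAD, and 11.31 and 11.95 in RIPC+LAD. All LAD values lay below all AMC values, and both RIPC values lay above them, while RIPC+LAD spread over the range of the other groups. The order of the means was LAD at 11.34 ± 0.22 (n = 3), RIPC+LAD at 11.63 ± 0.46 (n = 2), AMC at 11.67 ± 0.03 (n = 3) and RIPC at 11.89 ± 0.09 (n = 2), and of the neighbours AMC and RIPC did not overlap.

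Values of miR-431, the first hairpin inside Rtl1, ran from 7.87 log2 CPM in LAD 3 to 9.06 in RIPC+LAD 2. They were 8.38, 8.42 and 8.58 log2 CPM in AMC, 8.52 and 8.69 in RIPC, 8.71, 8.37 and 7.87 in LAD, and 8.20 and 9.06 in RIPC+LAD. For miR-665, which lies upstream of Rtl1, they were 9.10, 8.59 and 9.37 in AMC, 9.42 and 8.52 in RIPC, 8.26, 9.16 and 8.40 in LAD, and 9.47 and 9.06 in RIPC+LAD. Every group overlapped its neighbours for these 2 microRNAs. The raw count of miR-431 in LAD 3 was 6, just above the background of 5.915 in that sample.

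The remaining upstream members, miR-337 and miR-540, were near background. Raw counts of miR-337 were 5, 7 and 5 in AMC, 7 and 6 in RIPC, 12, 9 and 1 in LAD, and 8 and 9 in RIPC+LAD, and 0 of 3 AMC animals exceeded background. Raw counts of miR-540 were 13, 13 and 7 in AMC, 1 and 12 in RIPC, 9, 7 and 4 in LAD, and 7 and 4 in RIPC+LAD, and 0 of 2 RIPC+LAD animals exceeded background. On the log2 CPM scale miR-337 was 6.26, 6.60 and 6.31 in AMC, 6.79 and 6.55 in RIPC, 7.19, 7.79 and 5.91 in LAD, and 7.05 and 7.02 in RIPC+LAD. With values this close to background, the order of the groups is not firm for either. The log2 CPM of miR-540 was 7.31, 7.31 and 6.66 in AMC, 5.23 and 7.34 in RIPC, 6.86, 7.47 and 7.36 in LAD, and 6.90 and 6.16 in RIPC+LAD. Over all 8 members, 2 of the 24 steps between neighbouring groups showed no overlap, those of miR-136 and miR-433 given above, compared with 10.5% of the steps of all 253 microRNAs.

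Differences between groups were tested by the quasi-likelihood F test of edgeR over the 253 detected microRNAs, two-sided, with Benjamini-Hochberg adjustment. No member passed an adjusted p of 0.05 in any contrast, and neither did any other microRNA, 0% of those tested. DESeq2 called 1 microRNA in RIPC+LAD vs AMC and 0 in the other contrasts. The test over any of the 4 groups gave unadjusted p below 0.05 for 22 of 253 microRNAs (8.70%) and for 0 of the 8 members. The smallest adjusted p among the members was 0.607, for miR-434, followed by 0.702 for miR-127.

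The effect of coronary ligation alone was addressed by LAD vs AMC. Most members had lower values in LAD, 5 of 8, with 3 of 8 higher, where 47.8% of all microRNAs were higher. The median log2 fold change was -0.18 over the members and -0.01 over all microRNAs. Among the 64 microRNAs of highest mean log2 CPM, 48 were lower and 16 higher, with a median of -0.11. The largest difference was that of miR-337, higher by 1.06 ± 0.49 (SE) on the log2 scale with an edgeR adjusted p of 0.804, and it rests on counts of at most 12. It was 2.63 with the negative controls subtracted (adjusted p = 0.200 by edgeR) and 0.68 without LAD 2. This microRNA was the only member of 8 with an unadjusted p below 0.05, compared with 5.53% of all microRNAs. Log2 fold changes were -0.33 ± 0.26 for miR-433, -0.32 ± 0.27 for miR-434 and -0.43 ± 0.40 for miR-127, each with an edgeR adjusted p of 0.967. The groups of miR-433 did not overlap, as was so, in the lower direction, for 3.56% of all microRNAs. For miR-127 the difference depended on AMC 3, without which it was 0.04. Within the high POS_A set it was -1.48, which compares AMC 1 to 3 with LAD 1 alone, the lowest sample for miR-127.

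In the comparison of preconditioning alone with controls (RIPC vs AMC), the members lay on both sides of 0. Of the 8, 4 were higher and 4 lower, against 45.8% higher among all microRNAs, with medians of 0.07 over the members and -0.03 over all. None of the 8 had an unadjusted p below 0.05, where 1.19% of all microRNAs did. The log2 fold change of miR-127 was -0.43 ± 0.44, that of miR-540 -0.58 ± 0.63 and that of miR-136 -0.38 ± 0.46, all with an edgeR adjusted p of 0.997. Without AMC 3 the values of miR-127 and miR-136 were 0.05 and 0.36. The value of miR-540 rested on RIPC 1, with its count of 1, and was 0.25 without that animal. It was -3.07 without RIPC 2. Both RIPC values of miR-433 lay above those of AMC, as was so for 6.72% of all microRNAs.

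The smallest p-values of members came from the ligated animals with and without preconditioning. In RIPC+LAD vs LAD, miR-434 had a log2 fold change of 0.90 ± 0.30 (95% interval 0.26 to 1.54) with an edgeR adjusted p of 0.120. The value for miR-127 was 1.00 ± 0.44 (95% interval 0.07 to 1.92) with an edgeR adjusted p of 0.263. In the opposite direction, miR-136 was at -0.89 ± 0.48 (95% interval -1.91 to 0.12) with an edgeR adjusted p of 0.326. Neighbouring hairpins inside Rtl1 thus had values of opposite sign, although none of the 3 passed the adjusted threshold. An unadjusted p below 0.05 was reached by 2 of the 8 members and by 17.4% of all microRNAs. Of the members 5 of 8 were higher, as were 51.4% of all microRNAs, and the medians were 0.31 and 0.02. Since miR-434 and miR-127 are abundant, the 64 most abundant microRNAs were also considered, and their median was 0.25. RIPC+LAD and LAD did not overlap for miR-127 and miR-434 in the higher direction (18.6% of all microRNAs) nor for miR-136 in the lower (19.4%).

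The ligation control, the POS_A set and the depth of the LAD samples moved with this contrast. In a fit with the ligation control added as covariate, log2 fold changes were 0.42 ± 0.49 for miR-434, 0.09 ± 0.70 for miR-127 and -1.78 ± 0.72 for miR-136, the last with an edgeR adjusted p of 0.644. The ligation control was 4.30% to 9.90% of POS_A in LAD, and both RIPC+LAD animals lay above all others. Its part therefore cannot be told apart from that of the group in any contrast with RIPC+LAD. The difference of miR-127 was small and that of miR-136 wider in the fit with this covariate. The other members that changed sign there were miR-665 at -0.34, miR-431 at -0.19, miR-433 at -0.054 and miR-540 at 0.93. Within the low POS_A set, which holds LAD 2, LAD 3 and both RIPC+LAD animals, miR-434 was at 0.89, miR-127 at 0.59 and miR-136 at -1.15. With the 2 shallow samples LAD 2 and LAD 3 left out, only LAD 1 stood for its group, and the values were 0.73, 2.00 and -0.48. The sign of each of the 3 was the same in all of these fits, while the size of miR-127 ranged most widely. Leaving out LAD 1 gave 0.59 for miR-127, leaving out RIPC+LAD 2 gave 0.57 for miR-434, and leaving out LAD 2 gave -0.55 for miR-136.

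**Figure D2:**
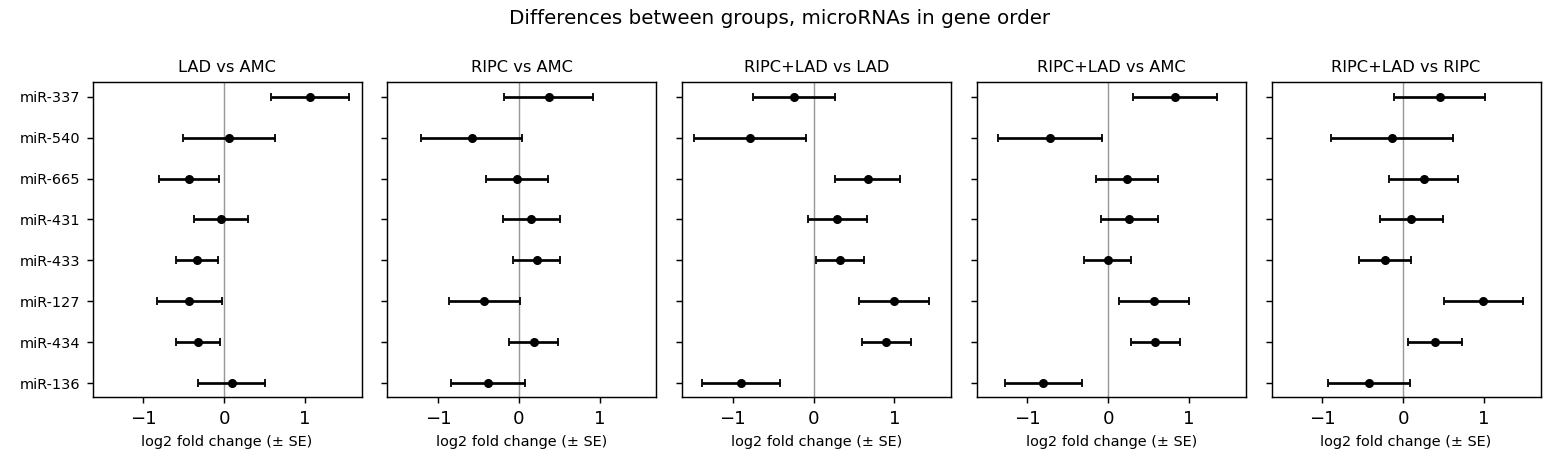
Log2 fold change with its SE from the edgeR fit for each microRNA, in gene order from top to bottom, in 5 contrasts. In RIPC+LAD vs LAD miR-127 and miR-434 lie at 1.00 and 0.90 and miR-136 at -0.89, and no value passed the adjusted threshold.

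Against the untreated controls the differences of miR-434, miR-127 and miR-136 had the same signs and were smaller. In RIPC+LAD vs AMC the log2 fold change was 0.58 ± 0.30 for miR-434, -0.80 ± 0.47 for miR-136, 0.82 ± 0.52 for miR-337 and 0.57 ± 0.43 for miR-127, with edgeR adjusted p of 0.596, 0.627, 0.627 and 0.656. Of the 8 members, 5 were higher and 0 had an unadjusted p below 0.05, against 47.4% and 8.70% of all microRNAs, and the medians were 0.25 and -0.01. The groups of miR-434 and miR-337 did not overlap, with RIPC+LAD higher, as for 17.0% of all microRNAs. The value of miR-136 rested on AMC 3 and was -0.06 without it, and that of miR-127 was 1.04 without AMC 3 and 0.25 without RIPC+LAD 2. Leaving out RIPC+LAD 2 gave 0.28 for miR-434, and subtracting the negative controls gave 2.04 for miR-337. With the ligation covariate the values were 0.25 for miR-434, -1.29 for miR-136, 0.34 for miR-337 and 0.048 for miR-127. With the POS_A set as a covariate miR-127 was at -0.25 and miR-665 at -0.55. That set cannot be told apart from these 2 groups, since no AMC animal is low and no RIPC+LAD animal is high.

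The effect of ligation in preconditioned animals was read from RIPC+LAD vs RIPC. The log2 fold change of miR-127 was 0.99 ± 0.48 with an edgeR adjusted p of 0.537. In a fit of these 4 animals alone it was 1.04 with an edgeR adjusted p of 0.0422, below the threshold. There 8 of 253 microRNAs were called. The spread in that fit came from 2 animals per group, and the RIPC values of miR-127 were 11.61 and 11.58. In all 10 samples the log2 fold change of miR-127 was 0.39 with the ligation control and 0.53 with the POS_A set as covariate. The edgeR adjusted p was 0.998 and 0.892. Values were 0.40 ± 0.33 for miR-434 and -0.42 ± 0.51 for miR-136, with edgeR adjusted p of 0.701 and 0.774. Leaving out RIPC+LAD 2 gave 0.11 for miR-434, and leaving out RIPC 2 gave -0.19 for miR-136. Of the 8 members, 5 were higher and 0 had an unadjusted p below 0.05, against 52.6% and 6.72% of all microRNAs, with medians of 0.18 and 0.07. RIPC+LAD lay wholly above RIPC for miR-127 and miR-337 (27.3% of all microRNAs) and wholly below it for miR-136 (21.7%). These contrasts share samples, so they do not count as separate evidence.

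Whether the ligation difference depended on preconditioning was tested as an interaction, the difference RIPC+LAD minus RIPC less the difference LAD minus AMC. It was 1.42 ± 0.63 on the log2 scale for miR-127, with an edgeR adjusted p of 0.341. For miR-434 it was 0.72 ± 0.43 and for miR-665 0.69 ± 0.56, with edgeR adjusted p of 0.476 and 0.610. Without RIPC+LAD 2 the value of miR-434 was 0.40, and that of miR-665 was 0.29 without RIPC 2 and 1.23 without RIPC 1. The interaction of miR-127 was 0.95 without AMC 3, 1.80 without LAD 2 and 0.43 with the ligation control as a covariate. An unadjusted p below 0.05 was found for 1 of the 8 members and 12.3% of all microRNAs. Of the 8, 5 were above 0, as were 51.8% of all, and the medians were 0.12 and 0.05.

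Ratios of raw counts within a sample do not depend on scaling between samples. Among the 6 members above background everywhere, 15 pairs can be formed, and in 2 of them the RIPC+LAD animals lay apart from the other 8. The same held for 17.2% of the 9870 pairs among the 141 microRNAs above background in every sample, so the count of such pairs is no result about the members. The ratio of miR-127 to miR-136 was 3.45, 2.70 and 2.19 in AMC, 2.91 and 2.12 in RIPC, 1.17, 1.80 and 2.20 in LAD, and 4.86 and 8.62 in RIPC+LAD. The ratio of miR-433 to miR-434 was 0.212, 0.141 and 0.161 in AMC, 0.158 and 0.187 in RIPC, 0.136, 0.170 and 0.194 in LAD, and 0.104 and 0.115 in RIPC+LAD. AMC 3, which was the highest of all in miR-136 and high in miR-127, had a ratio within the range of the other animals. These pairs were picked after their values were seen, and no test was made.

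**Figure D3:**
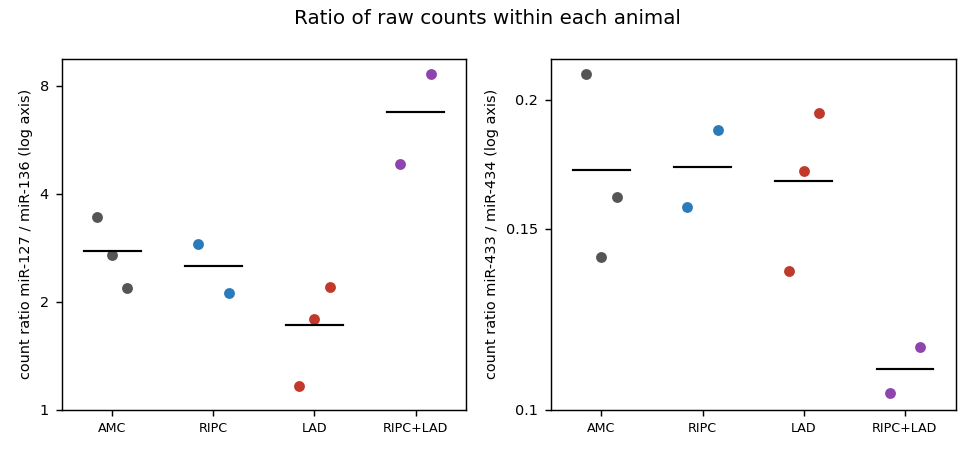
Ratio of raw counts of miR-127 to miR-136 (left) and of miR-433 to miR-434 (right) in each animal, on log axes, by group, with a bar at the arithmetic mean of the ratios. The RIPC+LAD animals lie at 4.86 and 8.62 on the left, above all others, and at 0.104 and 0.115 on the right, below all others.

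The 8 microRNAs differed in how closely they followed each other over the 10 samples. Pearson's r of log2 CPM was 0.67 between miR-127 and miR-665, 0.64 between miR-431 and miR-434, 0.60 between miR-433 and miR-434 and 0.52 between miR-127 and miR-434. It was 0.23 between miR-127 and miR-136, -0.34 between miR-136 and miR-434 and -0.62 between miR-434 and miR-540, the last with miR-540 near background. The points share depth and scaling. The mean log2 CPM of all 8 was 9.91 ± 0.21 in AMC (n = 3), 9.84 ± 0.09 in RIPC (n = 2), 9.82 ± 0.36 in LAD (n = 3) and 10.05 ± 0.09 in RIPC+LAD (n = 2). It includes miR-337 and miR-540, both near background. Over the 6 other members the means were 10.965 ± 0.346, 10.965 ± 0.096, 10.727 ± 0.330 and 11.134 ± 0.215 in the same order. The 5 other microRNAs that followed the mean of all 8 most closely were miR-376a (r = 0.94), miR-331 (r = 0.91), miR-154 (r = 0.86), miR-148b-5p (r = 0.85) and miR-324-3p (r = 0.83). Of these, miR-376a and miR-154 belong to the miR-379 to miR-410 group.

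The miR-379 to miR-410 group had 38 probes, of which 30 were detected. In RIPC+LAD vs LAD 23 of the 30 were higher and 7 lower, with a median of 0.32, next to 0.31 for the 8 members. Of all microRNAs 51.4% were higher in that contrast, and of the 64 most abundant 43 were, with a median of 0.25. The median of the miR-379 to miR-410 group was -0.18 in LAD vs AMC, where 19 were lower, and 0.10 in RIPC vs AMC, where 21 were higher. Higher values were found there for 47.8% and 45.8% of all microRNAs. Of the 64 most abundant, 16 and 23 were higher, with medians of -0.11 and -0.08. The 8 members had medians of -0.18 and 0.07 in those 2 contrasts, close to the ones of the miR-379 to miR-410 group. In RIPC+LAD vs AMC and RIPC+LAD vs RIPC its medians were 0.12 and 0.25, with 19 and 18 of 30 higher, against 47.4% and 52.6% of all microRNAs. No microRNA of the group passed the adjusted threshold. Unadjusted p-values below 0.05 were found for 3 of the 30 in RIPC+LAD vs LAD, all higher, 2 in LAD vs AMC, both lower, and 1 in the interaction. The shares of all microRNAs in these contrasts were 17.4%, 5.53% and 12.3%.

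**Figure D4:**
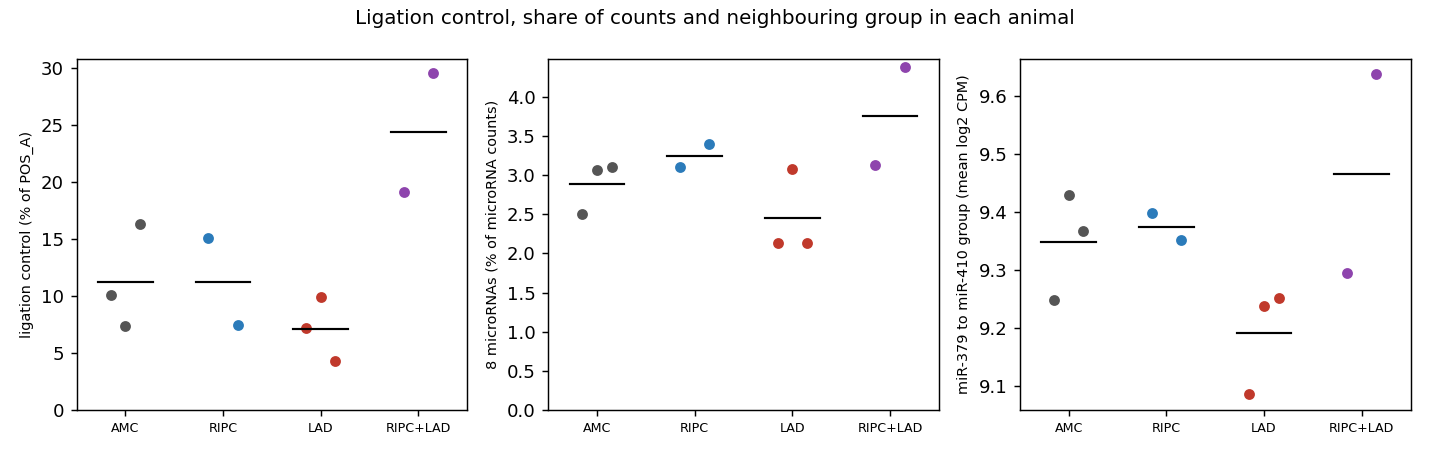
Ligation control as a percentage of POS_A (left), share of microRNA counts taken by the 8 microRNAs in percent (middle) and mean log2 CPM of the 30 detected microRNAs of the miR-379 to miR-410 group (right) in each animal by group, with a bar at the group mean. RIPC+LAD 2 is highest in all 3 panels, with a ligation control of 29.6% and a share of 4.38%, and the right axis does not start at 0.

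Summed markers of some other cell types of the punch also lay apart between the ligated groups. The 3 detected of 4 oligodendrocyte probes summed to 19770 to 48170 CPM in LAD and 10700 to 19160 CPM in RIPC+LAD. The 3 detected of 4 microglia and immune probes summed to 16960 to 18980 CPM and 11480 to 15070 CPM. For the 4 detected of 5 ciliated cell probes the sums were 1317 to 3606 CPM and 973.6 to 1098 CPM. The erythrocyte list, detected with 2 of 2 probes, gave 221.8 to 508.4 CPM and 178.1 to 198.2 CPM. These 4 sums were thus lower in RIPC+LAD without overlap, as were 19.4% of single microRNAs. Among their probes miR-338, miR-150, miR-449a, miR-449c-3p and miR-451 were lower without overlap, and the others overlapped. For miR-34c, the most abundant ciliated cell probe, log2 CPM was 11.17, 8.92 and 8.90 in LAD and 9.03 and 9.37 in RIPC+LAD. The sums of choroid plexus (2 of 2 probes, 18430 to 189500 CPM and 19120 to 21490 CPM) and vascular markers (3 of 3 probes, 19740 to 31750 CPM and 26160 to 28920 CPM) overlapped. The 5 detected of 6 neuron probes summed to 52120 to 97450 CPM in LAD and 76800 to 88700 CPM in RIPC+LAD, with overlap. The part of these differences in the values of miR-127, miR-434 and miR-136 was not tested.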

How the data were processed

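The authors' deposited counts, whole numbers per probe from the NanoString nCounter rat microRNA panel, were used for all tests. The lowest count is 1. Which software counted the barcodes was not given in the sources. A further deposited table by the authors holds log2 values of 146 microRNAs, 6 of the 8 members among them. For the 144 matched by name a value equals log2 of the count scaled to 100000 counts per sample. Groups follow the treatment labels, and each sample has its own animal number. Counts were scaled by TMM and fitted for all 10 samples together with edgeR 4.0.16 in R 4.3.3, so that the spread was estimated over all groups (common biological coefficient of variation 0.287). An SE was derived by dividing the size of the log2 fold change by the root of its F statistic. The prior count for log2 CPM was 2.

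The members and lists were chosen with earlier results of these data known. All members were named, with statistics for the 3 of smallest p per contrast and miR-127. No file repeated another sample: chi-square per degree of freedom was 7.65 to 46.3 within groups and 5.52 to 93.6 between groups. The closest pair, AMC 3 with LAD 2, was of different groups. On simulated data, 19 of 100 log2 changes of 1 and 75 of 100 of 2 were called in RIPC+LAD vs LAD, and 34 and 82 in LAD vs AMC, over 253 microRNAs. Sequences are from RefSeq (GRCr8). Alternatives were DESeq2 1.42.0, limma 3.58.1, scaling to the top 100 microRNAs, the library total, control subtraction, no filter, only the groups compared, covariates, the animal prefix as random block, and leaving out samples singly. In the block fit the correlation within a prefix was -0.227, and no prefix crosses groups. In RIPC+LAD vs LAD it gave unadjusted p below 0.05 for 64 microRNAs, against 44 in the main fit, so it was not stricter.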

Additional observations from a re-analysis of the deposited data

How the results depend on the processing

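Of the log2 fold changes followed through the alternatives (the 3 members of smallest p per contrast and miR-127), single left-out samples aside, 3 reversed, 1 passed the threshold and the others kept their direction and their side of it. Over all 8 members the ligation covariate changed the sign of 4 in RIPC+LAD vs LAD, 3 in RIPC+LAD vs AMC, 4 in RIPC+LAD vs RIPC, 4 in the interaction and 2 in LAD vs AMC, and the POS_A set that of 2 in each of LAD vs AMC, RIPC+LAD vs AMC and RIPC+LAD vs RIPC. The reversals among those followed were miR-127 in RIPC+LAD vs AMC with the POS_A set as a covariate (-0.25), miR-665 in the interaction with the ligation control as a covariate (-0.30) and miR-540 in RIPC vs AMC within the high POS_A set (0.27). In the fit of RIPC+LAD and RIPC alone, with 2 animals per group, 8 of 253 microRNAs were called, miR-127 among them at 1.04. Other counts of called microRNAs were 1 in RIPC+LAD vs AMC by DESeq2, and, with the animal number prefix as a random block, 1 each in RIPC+LAD vs LAD and for the interaction, 2 in RIPC+LAD vs RIPC within the low POS_A set (RIPC 1 alone in its group) and 4 in LAD vs AMC within the high set (LAD 1 alone). Without LAD 2 and LAD 3, which leaves LAD 1 alone in its group, the interaction had 2 and RIPC+LAD vs LAD had 3. Calls from a group of 1 assume that the animal varies like the others and give no support, and the block fit was not stricter. The fits within a POS_A set, without both of LAD 2 and LAD 3, and with only the 6 members above background were chosen after seeing the data.

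The number of members with a higher value was 3 in the interaction under scaling to the top 100 microRNAs, the library total, the authors' table and the ligation covariate. It was 3 in RIPC+LAD vs RIPC under the authors' table and the ligation covariate, 3 in RIPC+LAD vs AMC with the POS_A set and 3 in RIPC+LAD vs LAD with the ligation covariate. In LAD vs AMC it was 1 under the authors' table, which holds 6 members, and 1 over the 6 members above background. With the ligation covariate the difference in mean log2 CPM of the members was -0.22 in RIPC+LAD vs LAD (0.23 without it), -0.15 in RIPC+LAD vs AMC (0.14), -0.084 in RIPC+LAD vs RIPC (0.20) and -0.16 in the interaction (0.29). The cause was not tested. Scaling to the top 100 moved the median of all microRNAs by -0.25 in the interaction, -0.17 in RIPC+LAD vs LAD and 0.131 in LAD vs AMC.

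With each sample left out in turn, a lone remaining animal being assumed to vary like the other groups, called microRNAs ranged from 0 to 1 in RIPC+LAD vs AMC (1 without AMC 3 or LAD 1) and from 0 to 1 in the interaction (1 without RIPC 1). Members higher ranged from 4 to 7 in RIPC vs AMC, from 1 to 4 in LAD vs AMC and from 3 to 6 in RIPC+LAD vs LAD. The log2 fold change ranged from -0.80 to 0.042 for miR-127 in LAD vs AMC, and in RIPC vs AMC from -0.65 to 0.047 for miR-127, from -0.67 to 0.36 for miR-136 and from -3.07 to 0.25 for miR-540. No paired analysis was possible because the replicate numbers were given in accession order and pair no animals across groups.

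Depth limits the scarce members most, since miR-337 and miR-540 had counts of 1 to 13, and LAD 3 had the fewest counts. A p that missed the threshold does not show equal levels, as the 95% intervals in RIPC+LAD vs LAD reach 1.92 for miR-127 and 1.54 for miR-434. The lower bound for miR-136 in that contrast was -1.91.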
